A study of Mus musculus with 9 samples.

Results

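The 9 aorta arrays of a BMAL knockout study were sorted here by the level of a clock transcript that they measured themselves, whatever their genotype label. The sorting transcript was Arntl, the gene of the clock protein BMAL1, read on the brighter of its probe sets, and the divide was a log2 level of 4.5. All 9 arrays of the series could be placed. Arrays F02, F03, F04 and F08 lay above the divide and are called Arntl-high, and arrays F01, F05, F07, F09 and F10 lay below it and are called Arntl-low. The sorting crosses the labels at 2 arrays, since F04 is labelled BMAL+/+ and F05 is labelled BMAL-/-. The labels put F01, F04, F07, F09 and F10 in BMAL+/+ (5 arrays), and F02, F03, F05 and F08 in BMAL-/- (4 arrays). For F01, title and strain say BMAL+/+ while the source name says BMAL-/-.

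All mice were male and only partially backcrossed onto C57Bl/6J. They had been kept for 2 weeks or more in cycles with 12 h of light, then spent 30 h or more in continuous darkness and were killed at ZT14, early in the time of day when light had been off. Their age is not stated in the labels. RNA came from the aorta, named as thoracic in one label and described in the protocol as reaching down to the femoral branching, and each sample was hybridised to 1 Affymetrix mouse expression array. The labels name no tissue-specific driver of the knockout, and the sources used here do not state which exon was removed or whether the Arntl probe sets lie inside the removed part. A level on these probe sets is therefore not a check of the deletion.

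The circadian clock is a feedback loop of transcription factors. BMAL1 pairs with CLOCK or NPAS2, binds E-boxes and switches on the Period and Cryptochrome genes, the REV-ERB genes Nr1d1 and Nr1d2 and the factors Dbp, Tef and Hlf. Period and Cryptochrome proteins then restrain BMAL1, and REV-ERB proteins repress Arntl, Npas2, Cry1 and Nfil3. In the vessel wall this loop runs in smooth muscle, endothelium and fibroblasts, and many metabolic and detoxifying enzymes elsewhere in the body follow it.

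Because a measured value made the groups, no p-value was computed between Arntl-high and Arntl-low arrays, and what follows on them is a description: the level on every array, the difference of the means (Arntl-high minus Arntl-low, on the log2 scale, where 1 is 2-fold), the gap between the nearest arrays, and whether the groups overlap. A single time point was sampled, so a clock that has stopped and a clock that stands at another phase cannot be told apart. The only tested contrast is that of the genotype labels.

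On the sorting probe set the levels were 5.87 on F02, 6.22 on F03, 6.67 on F04 and 6.05 on F08, against 2.76 on F01, 2.77 on F05, 2.79 on F07, 2.82 on F09 and 2.74 on F10. No array lay near the divide, the nearest being F09 below it and F02 above it. The weaker Arntl probe set read 4.76 on F03, 4.14 on F04 and 4.13 on F08 but only 2.18 on F02, and 1.81 to 1.88 on the Arntl-low arrays. Its widest gap would thus have put F02 with the Arntl-low arrays. Npas2, the partner of BMAL1, read 8.08 on F02, 7.90 on F03, 8.36 on F04 and 8.52 on F08, and 3.37 to 3.40 on the other 5. Nr1d2, which encodes REV-ERB beta, ran the opposite way, with 5.08 on F02, 5.89 on F03, 5.81 on F04 and 5.48 on F08 against 11.69 on F01, 11.21 on F05, 11.27 on F07, 10.39 on F09 and 11.09 on F10. The widest gaps of Npas2 and of Nr1d2 gave the same 4 and 5 arrays as Arntl.

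**Figure D1:**
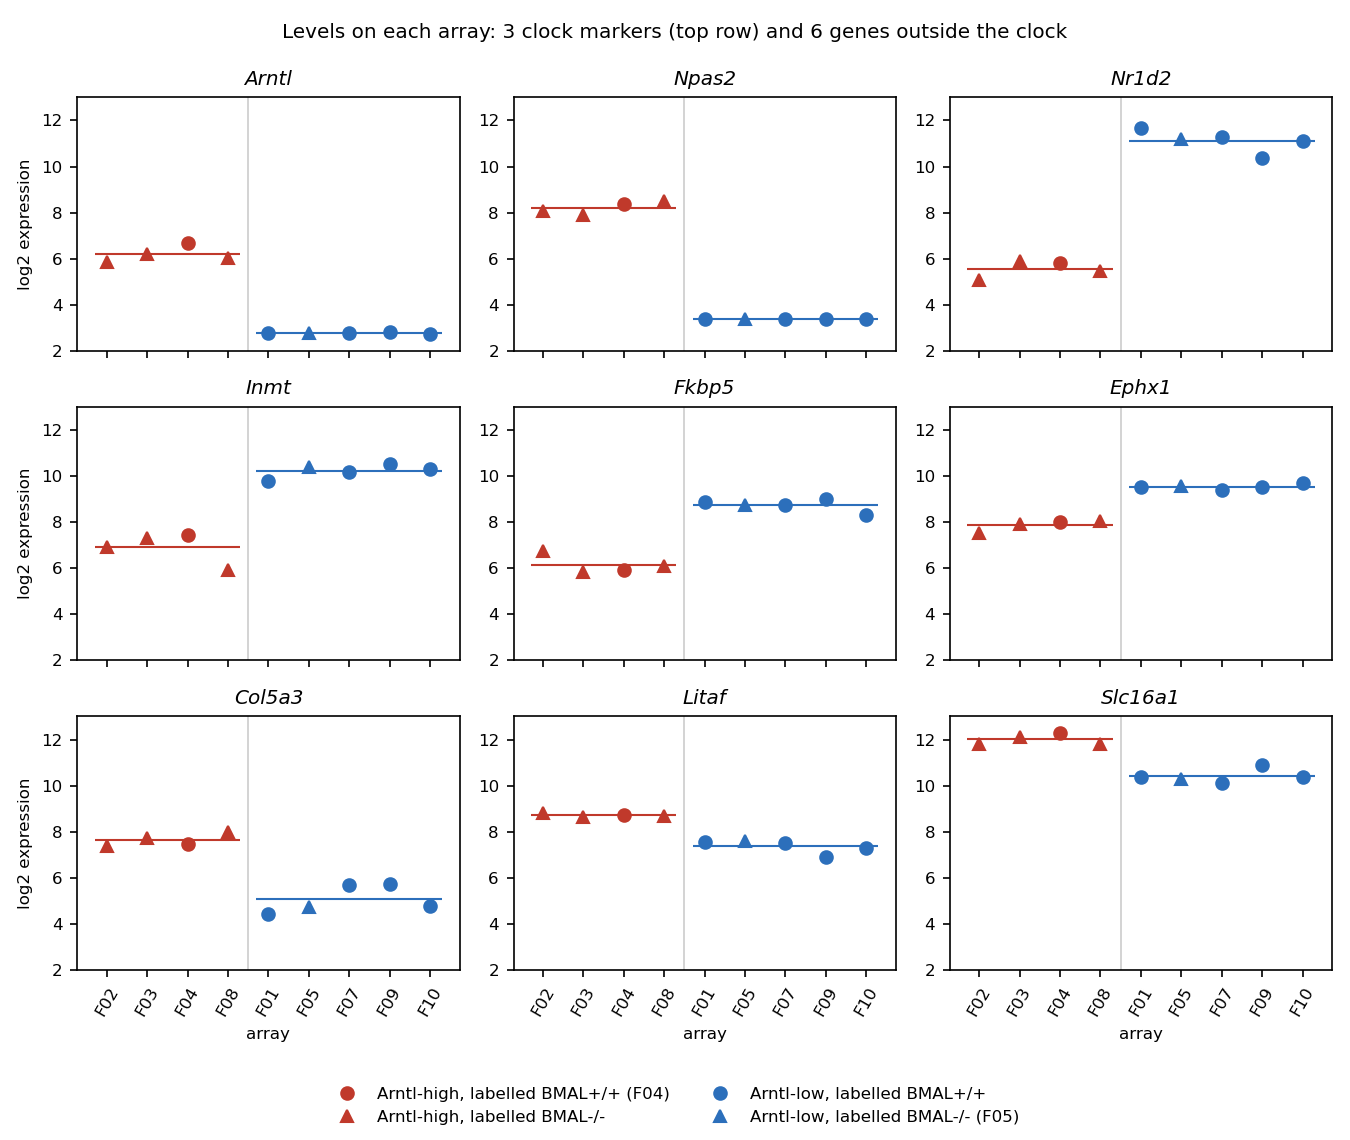
Log2 expression on each of the 9 arrays for the 3 clock markers that define or track the sorting (top row) and for 6 genes outside the clock (middle and bottom rows). Red points are Arntl-high and blue points Arntl-low arrays, circles are arrays labelled BMAL+/+ and triangles BMAL-/-, and horizontal lines are the means of the points. In every panel the red and blue points do not overlap, with F04 (red circle) among the red and F05 (blue triangle) among the blue. For the 6 genes outside the clock this was fixed by their choice, and for Arntl by the sorting.

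The remaining clock genes are circular for this sorting and are given only to show what it carries. Of 29 genes on the clock list, 27 were measured by a probe set of their own, and at the brightest probe set 5 did not overlap with Arntl-high above (Arntl, Npas2, Clock, Cry1 and Nfil3) and 8 with Arntl-high below (Nr1d2, Per2, Per3, Dbp, Tef, Hlf, Usp2 and Wee1). Dbp, a factor that passes clock time to target genes, read 6.74 to 7.88 on the Arntl-high and 9.49 to 12.48 on the Arntl-low arrays. Cry1, a repressor of BMAL1, read 9.57 to 10.30 against 7.50 to 8.80. Per1 overlapped, at 4.34 to 5.95 against 4.52 to 5.82. The clock list therefore ranges to both signs, and its median difference of -0.11 describes neither direction.

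Before the genes outside the clock, the state of the arrays has to be given, because it moves with the sorting. The chip carries pairs of control probe sets at the 3′ and 5′ ends of the same transcript, and the difference between them widens when labelling does not reach the 5′ end. For Gapdh it was 3.31 on F02, 2.88 on F03 and 3.01 on F04 but 0.05 on F08, against 1.26 on F01, 0.70 on F05, 0.12 on F07, -0.05 on F09 and -0.13 on F10. For Actb it was 4.24, 4.20 and 3.91 on F02, F03 and F04 and 1.80 on F08, with 1.38 to 2.72 on the Arntl-low arrays. So 3 of the 4 Arntl-high arrays had a wide 3′ to 5′ difference and F08 did not. The added spike-in transcripts showed it too: for thr it was 3.86, 3.04 and 3.03 on F02, F03 and F04, 0.79 on F08 and 0.28 to 1.80 on the others. On the other spike-ins F01 came closer to F02, F03 and F04. There it was 3.12 on F01 against 3.17 on F03 for lys and 2.11 against 2.37 for dap. For phe it was 2.79 on F01 against 3.32 on F04. The part of this difference in the results was not tested. For that reason the level on F08, or its difference from the Arntl-low mean, is given beside most lists and named genes outside the clock. F08 was itself an Arntl-high array when genes without overlap were chosen. For those genes its lying beyond every Arntl-low array was thus fixed by the choice. Array medians lay between 3.13 and 3.24. Of the dim probe sets 76.7% had a higher mean in Arntl-high arrays, and of the bright ones 48.7%.

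**Figure D2:**
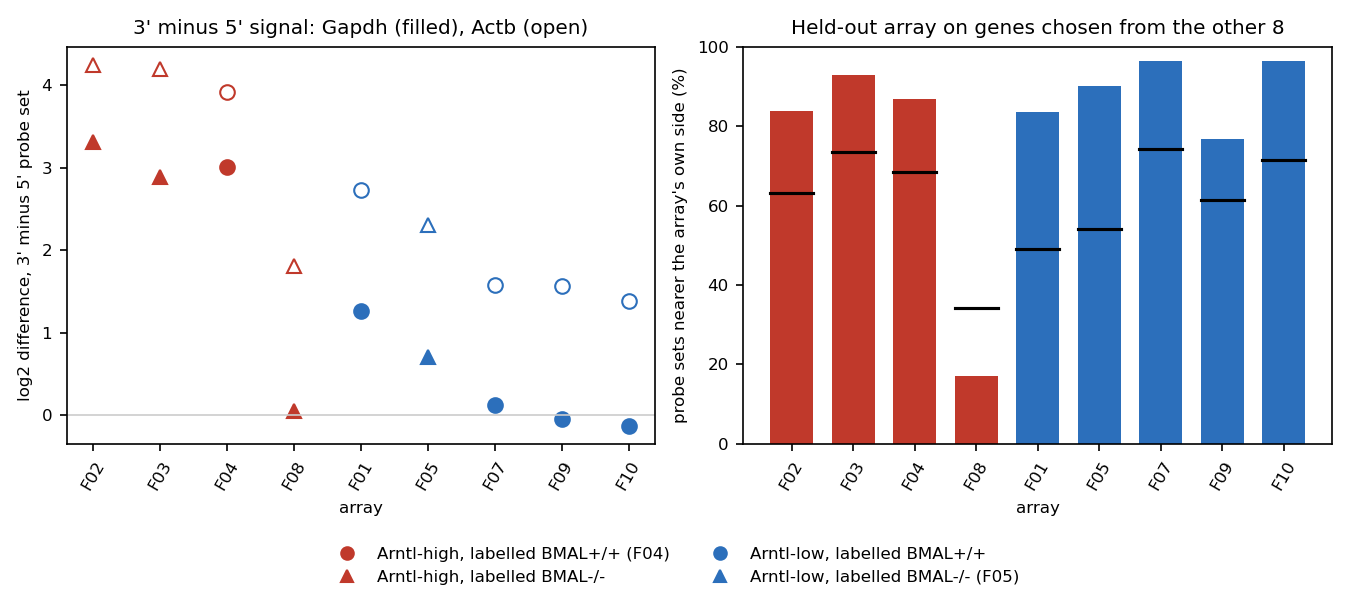
Left, log2 difference between the 3′ and the 5′ control probe set of Gapdh (filled) and Actb (open) on each array, with red for Arntl-high, blue for Arntl-low, circles for BMAL+/+ and triangles for BMAL-/-. F02, F03 and F04 are the 3 highest for both, and F08 lies among the Arntl-low arrays. Right, for each array, the percentage of probe sets, chosen on the other 8 arrays, at which it lay nearer the mean of its own side (bars), and the same percentage over all bright probe sets outside the clock (black lines). The bar of F08 is at 17.1% and those of the other arrays are between 76.9% and 96.6%.

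The tissue was checked against markers. Smooth muscle genes were bright everywhere, with the smooth muscle actin gene Acta2 between 13.99 and 14.37 on all 9 arrays. Brown fat was present on every array, with the heat-producing uncoupler Ucp1 at 13.10 to 14.68. Muscle from outside the vessel wall varied widely: the atrial light chain gene Myl7 read 2.36 on F02 and 10.95 on F09, and the skeletal actin gene Acta1 read 5.56 on F01 and 13.10 on F08. The B cell gene Cd79a was near the floor (2.45 to 2.52) on 7 arrays, and read 4.57 on F02 and 7.28 on F10. In whole tissue, fewer cells of a type and less RNA per cell cannot be told apart.

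The genotype labels themselves gave no called probe set. With limma's moderated test and Benjamini-Hochberg adjustment over 45037 probe sets, 0 passed an adjusted p of 0.05 (percent called 0) and the smallest adjusted p was 0.37, while 3903 had an unadjusted p under 0.05. Of these 3903, 3565 were higher and 338 lower in BMAL-/-. After quantile normalization the same split was 1137 to 681, and after centring the arrays on 1 median it was 582 to 507, with no call in either. A one-way ANOVA without moderation also called 0, with 3528 under an unadjusted 0.05. Arntl itself differed by 1.67 ± 1.02 (SE) between the labels, with an adjusted p of 0.39 in limma. F04 and F05 each lay with the arrays of the other label.

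Sorted by Arntl, the same arrays separated at many more transcripts. Of all 45037 probe sets, 2116 did not overlap between Arntl-high and Arntl-low arrays, 4.7% of them. Of these, 1361 were higher in Arntl-high (3.02% of all) and 755 lower (1.68%). Among the 11260 bright probe sets, those whose mean over the 9 arrays reached the upper quartile of 5.93, 1038 did not overlap (9.22%). A probe set was called when it was bright, did not overlap and differed by 2-fold or more in the means, and 284 of the bright ones (2.52%) did, 104 higher (0.924%) and 180 lower (1.6%). Outside the clock list that left 101 higher in Arntl-high (0.899% of 11239) and 173 lower (1.54%). They named 223 genes, and 22 of the 274 probe sets had no gene or several. Set out by the genotype labels in the same way, 42 bright probe sets outside the clock did not overlap, against 1025 by Arntl, and 2 higher and 0 lower reached 2-fold. These counts compare groupings of the same arrays, and the sorting by Arntl had the choice of the arrays in its favour.

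The count of called probe sets depended on F08. Without it, 213 higher and 853 lower were called, and the remaining Arntl-high arrays were then the 3 with the wide 3′ to 5′ difference. Leaving out any other single array gave 81 to 142 higher and 166 to 230 lower. With F02 and F03 removed, 93 higher and 147 lower were called, of which 66 and 107 were among the 101 and 173. With F02, F03 and F04 all removed, so that F08 alone stood against the 5 Arntl-low arrays, 143 higher and 197 lower were called, sharing 30 and 65. No overlap is an easier bar with fewer arrays on a side, so these counts are not like for like. On the called probe sets F08 lay less far from the Arntl-low mean than the other 3 Arntl-high arrays did. The median share of their distance was 0.616 for the 101 higher and 0.521 for the 173 lower probe sets, and for 10 called clock probe sets it was 0.996. F08 was at least 2-fold from the Arntl-low mean at 39 of the 101, at 65 of the 173 and at 9 of the 10.

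Taken at the brightest probe set of each of 6803 bright genes outside the clock, 76 genes were higher in Arntl-high (1.12%) and 100 lower (1.47%). Their median difference was 1.24 for the higher and -1.40 for the lower genes, and the widest gap between nearest arrays was 1.63 and 2.35 respectively. The 12 genes with the widest gap in each direction are described next. All 24 stayed without overlap after quantile normalization and after centring. Some passed the limit of brightness, a mean of 5.93 over all arrays, only through the side on which they were high. Of the 12 higher genes, Col5a3, Cars2 and Slc25a34 had an Arntl-low mean below it (5.07, 5.62 and 4.56), and of the 12 lower genes Serpini1 and Ifit3 had an Arntl-high mean below it (4.99 and 5.62). Among all called probe sets this held for 17 of the 101 higher and 34 of the 173 lower, so that these had to differ in order to count as bright.

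The values below are those of the brightest probe set of a gene. With the mean of all probe sets of a gene in its place, the difference went from 2.56 to 1.30 for Col5a3, from 2.35 to 1.30 for Cars2, from 2.20 to 1.23 for Slc19a1, from 1.35 to 0.87 for Litaf, from 2.04 to 1.04 for Klb and from 1.19 to 0.41 for Rnf144a. Among the lower genes it went from -2.60 to -1.53 for Fkbp5, from -2.75 to -1.80 for Fam107a, from -2.68 to -1.63 for Serpini1, from -2.46 to -1.23 for Cys1 and from -1.88 to -0.38 for Vcan. Some of the added probe sets lay near the floor on all 9 arrays. They read 2.36 to 2.44 for Col5a3, 2.14 to 2.20 for Klb and 1.81 to 1.83 for Cys1. A probe set at the floor can show little difference, so its share in a mean makes that mean smaller. The other 13 genes moved by less than 1.5 times. Of these, C730049O14Rik, Slc25a34, Dhcr7, Inmt, Tspan4, Ephx1, Gdf10 and Ifit3 had 1 probe set each and could not move.

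**Figure D3:**
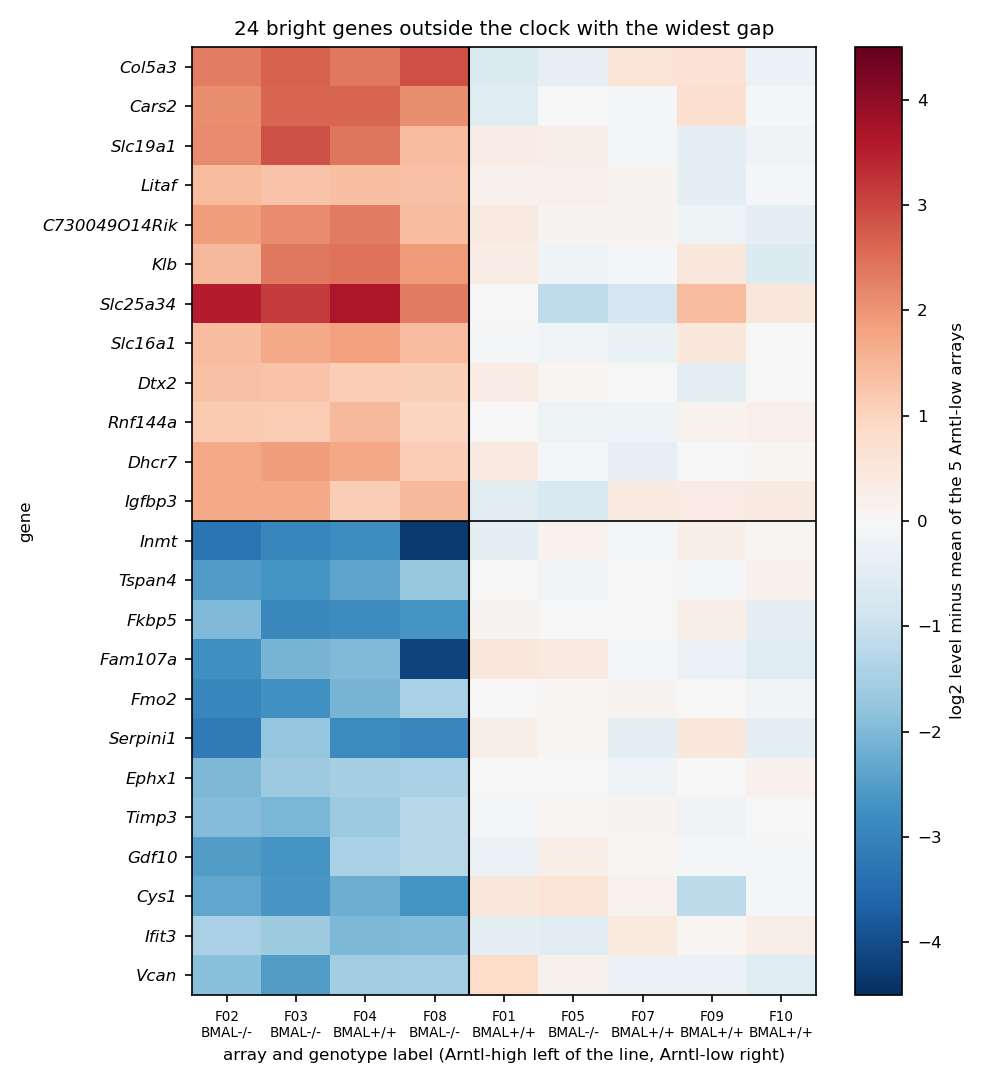
Log2 level minus the mean of the 5 Arntl-low arrays for the 24 bright genes outside the clock with the widest gap between nearest arrays, 12 higher (above the horizontal line) and 12 lower (below it) in Arntl-high arrays. Columns are the 9 arrays with their genotype label, with the Arntl-high ones left of the vertical line. F04, labelled BMAL+/+, has the colours of its Arntl-high neighbours and F05, labelled BMAL-/-, those of the Arntl-low arrays. The genes were chosen for no overlap with F04 and F05 on these sides, so this was fixed by the choice.

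One group among the lower genes was of enzymes that modify foreign or small molecules. Inmt, which methylates indole amines, read 6.94 on F02, 7.31 on F03, 7.44 on F04 and 5.94 on F08, against 9.79 on F01, 10.39 on F05, 10.18 on F07, 10.53 on F09 and 10.30 on F10. Its difference was -3.33 and its gap of 2.35 was the widest of all genes called outside the clock, with F08 the lowest array. Fmo2, a monooxygenase of drugs, read 9.21, 9.42, 10.03 and 10.67 on F02, F03, F04 and F08, against 12.00 to 12.24 on the Arntl-low arrays. Its 4 bright probe sets were lower without overlap. The fifth overlapped and lay near the floor on every array but F01 (4.15). Ephx1, the microsomal epoxide hydrolase, read 7.51, 7.90, 8.03 and 8.06 in the same order against 9.38 to 9.72. On the list of xenobiotic metabolism, 11 of 17 measured genes did not overlap with Arntl-high below and none above. Over all 18193 genes the shares were 2.04% below and 3.94% above, and over bright probe sets 4.48% and 4.74%. The list had a median difference of -1.05 (all genes 0.04), its median on F08 alone was -1.10, and F08 lay below every Arntl-low array at 13 of the 17 genes, against 11.5% of all genes. These 13 include the 11 without overlap, at which it was fixed by the choice, so the count adds little to theirs. Cyp2e1, a cytochrome P450 of alcohol and solvents, read 11.95, 11.34, 11.33 and 12.33 on F02, F03, F04 and F08 and 13.08 to 13.77 on the others. The P450 gene Cyp2f2 and the glutathione transferase Gsta3 were dimmer, at 2.17 to 2.86 against 4.81 to 7.84 and at 3.39 to 3.90 against 5.58 to 8.03, with F08 alone at -3.68 and -2.58 from the Arntl-low mean. Ces1d, a carboxylesterase, overlapped, at 12.60 to 12.94 against 12.84 to 13.35.

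Genes known as targets of glucocorticoid hormone formed another group. Fkbp5, a chaperone that holds the glucocorticoid receptor back and is itself a standard target of it, read 6.75 on F02, 5.82 on F03, 5.91 on F04 and 6.08 on F08, against 8.86, 8.75, 8.73, 9.02 and 8.32 on F01, F05, F07, F09 and F10. Its difference was -2.60, with F08 alone at -2.66, and a second, dimmer probe set did not overlap either. Tsc22d3, which encodes the anti-inflammatory protein GILZ, read 7.38 to 7.68 against 8.16 to 9.27, and F08 alone differed from the Arntl-low mean by -1.01. The metallothioneins Mt1 and Mt2, which bind zinc and copper, read 8.88 to 9.59 against 10.37 to 11.52 and 7.25 to 7.40 against 7.99 to 9.12, with F08 at -1.21 and -1.17. Over all probe sets of the gene the difference was -0.79 for Mt1 in place of -1.60 and -0.55 for Tsc22d3 in place of -1.16. Of 17 measured genes on this list, 5 did not overlap with Arntl-high below and 1 above, against 2.04% and 3.94% of all genes. Over bright probe sets these shares were 4.48% and 4.74%. The list had a median of -0.37, and of -0.67 on F08 alone. The fifth below was the sulfotransferase Sult1a1 (difference -0.99), and the 1 above was the cell cycle inhibitor Cdkn1a (1.34), both named after their values were seen. Klf9 and Pdk4, also targets of the hormone, overlapped, with differences of -0.37 and 0.88. Klf15, a Kruppel-like factor that governs amino acid and lipid use, read 6.71 to 7.39 against 7.58 to 8.47 (F08 at -1.28) and was the only one of 11 measured Kruppel-like factors without overlap. Fam107a, an actin-binding protein known to be induced by stress, read 6.99 on F02, 7.68 on F03, 7.76 on F04 and 5.60 on F08, and 10.25, 10.16, 9.68, 9.50 and 9.19 on F01, F05, F07, F09 and F10.

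Further lower genes were Tspan4, Timp3, Vcan and Gdf10. Tspan4, a tetraspanin of the cell membrane, read 6.05 on F02, 5.94 on F03, 6.25 on F04 and 6.90 on F08 against 8.51 to 8.79, so that the Arntl-low arrays lay within a narrow band and F08 nearest to it. Timp3, an inhibitor of metalloproteinases that is bound in the matrix, read 8.91, 8.81, 9.23 and 9.57 against 10.71 or more, and all 4 of its probe sets were lower. Vcan, the proteoglycan versican, read 6.09, 5.44, 6.41 and 6.45 against 7.43 to 8.81. Of its 8 probe sets 3 had that sign, 1 of them near the floor at 2.08 to 2.18. Those of the other sign lay near the floor at 2.11 to 2.80. Gdf10, a bone morphogenetic protein, read 7.42, 7.28, 8.50 and 8.64 against 9.67 to 10.23. Of 18 measured matrix genes 6 did not overlap with Arntl-high below and 1 above, against 2.04% and 3.94% of all genes. Over bright probe sets these shares were 4.48% and 4.74%. The 1 above was Adamts4, a protease of proteoglycans, at 3.73 to 4.57 against at most 3.08, with F08 at 3.73. Adamts4 was below the limit of brightness. The median of the list was -0.58 over the 4 Arntl-high arrays and -0.05 on F08 alone. The remaining lower genes were Serpini1, an inhibitor of plasminogen activators (4.48 to 5.94 against 7.27 to 8.14), Cys1, a protein of cilia (5.93 to 6.43 against 7.44 to 9.24), and Ifit3, an interferon-induced protein (5.36 to 5.93 against 6.93 to 7.85). F08 alone differed from the Arntl-low mean by -2.95 for Serpini1, -2.69 for Cys1 and -1.99 for Ifit3. Of the 9 measured interferon response genes, Ifit3 alone did not overlap, and after quantile normalization 2 did not.

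The higher genes were led by Col5a3, a fibrillar collagen chain, at 7.37 on F02, 7.74 on F03, 7.45 on F04 and 7.97 on F08 against 4.43 on F01, 4.71 on F05, 5.67 on F07, 5.73 on F09 and 4.79 on F10. F08 was the highest of all arrays here, and the gap was 1.63. Cars2, which charges mitochondrial transfer RNA with cysteine, read 7.70, 8.24, 8.25 and 7.70 against 5.06 to 6.33. Litaf, a membrane protein of late endosomes, read 8.81, 8.66, 8.72 and 8.67 against 6.92 to 7.59. The Arntl-high arrays were closer to one another on Litaf than on any other of the 24 genes. Rnf144a and Dtx2, both ubiquitin ligases, read 8.07 to 8.55 against 6.88 to 7.33 and 9.24 to 9.48 against 7.73 to 8.48. Igfbp3, which binds insulin-like growth factors in blood and matrix, read 7.67 to 8.28 against 5.89 to 6.98. F08 alone differed from the Arntl-low mean by 0.98 for Rnf144a, 1.09 for Dtx2 and 1.45 for Igfbp3.

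The other higher genes included 3 solute carriers. Slc16a1, the monocarboxylate transporter MCT1 for lactate and ketone bodies, read 11.82 on F02, 12.13 on F03, 12.28 on F04 and 11.82 on F08 against 10.38, 10.28, 10.13, 10.90 and 10.39 on F01, F05, F07, F09 and F10. Slc19a1, the reduced folate carrier, read 8.55, 9.30, 8.82 and 7.82 against 6.02 to 6.74, with F08 the lowest of the Arntl-high arrays. Slc25a34, a mitochondrial carrier, read 8.08, 7.71, 8.20 and 6.91 against 3.42 to 5.97 and had the largest difference of the 12 higher genes, 3.17, over widely spread Arntl-low arrays. Klb, the co-receptor beta-klotho of endocrine fibroblast growth factors, read 7.74, 8.68, 8.73 and 8.21 against 5.69 to 6.80. The unnamed transcript C730049O14Rik read 9.79 to 10.73 against at most 8.81, with F08 the lowest of the Arntl-high arrays.

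Dhcr7, which carries out the last step of cholesterol synthesis, read 7.98 on F02, 8.17 on F03, 8.01 on F04 and 7.38 on F08 against 6.68, 6.19, 5.91, 6.28 and 6.36 on F01, F05, F07, F09 and F10. It belongs to a list of cholesterol synthesis and uptake. On it 5 of 12 measured genes did not overlap with Arntl-high above (3.94% of all genes, 4.74% of bright probe sets) and 0 below (2.04% and 4.48%). Among them Hmgcs1, which makes the precursor of mevalonate, read 12.18, 12.37, 12.31 and 11.73 against 10.42 to 11.43, and Lss, which closes the sterol rings, read 7.22 to 7.73 against 6.00 to 6.85. Idi1, the isomerase of the isoprene unit, read 9.16 to 9.67 against 8.46 to 8.69, and Insig1, the sterol sensor partner, 9.89 to 10.43 against 9.53 to 9.77. F08 alone differed from the Arntl-low mean by 0.85 for Lss, 0.58 for Idi1 and 0.25 for Insig1. Over all its probe sets the difference of Hmgcs1 was 0.81 in place of 1.28. The list's median was 0.47, and 0.79 on F08 alone, which lay above every Arntl-low array at 7 of the 12 genes against 10.3% of all genes. These 7 include the 5 without overlap, at which it was fixed by the choice. The mean level of the list nonetheless overlapped, at 7.80 to 8.07 on the Arntl-high and 7.11 to 8.10 on the Arntl-low arrays, with the Arntl-low array F09 the highest of all. Fdft1, the squalene synthase, overlapped (10.53 to 11.70 against 10.17 to 11.35). Of 14 fatty acid synthesis genes 4 did not overlap with Arntl-high above: Srebf1, the transcription factor that drives them, at 11.31 to 12.16 against 9.94 to 11.05, the elongase Elovl5 at 11.03 to 11.19 against 9.54 to 10.54, the citrate lyase Acly at 13.26 to 13.78 against 12.56 to 12.99, and the desaturase Scd2 at 11.88 to 12.29 against 10.19 to 11.77. Fasn, the synthase itself, overlapped at 13.69 to 14.14 against 13.45 to 14.13. F08 alone differed from the Arntl-low mean by 0.82 for Srebf1, 1.09 for Elovl5, 0.43 for Acly and 1.16 for Scd2, and over all probe sets the difference was 0.41 for Acly in place of 0.80 and 0.41 for Scd2 in place of 0.97. The list's median was 0.51, and 0.22 on F08 alone. Its mean level overlapped too, at 11.77 to 12.25 against 11.23 to 11.99.

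**Figure D4:**
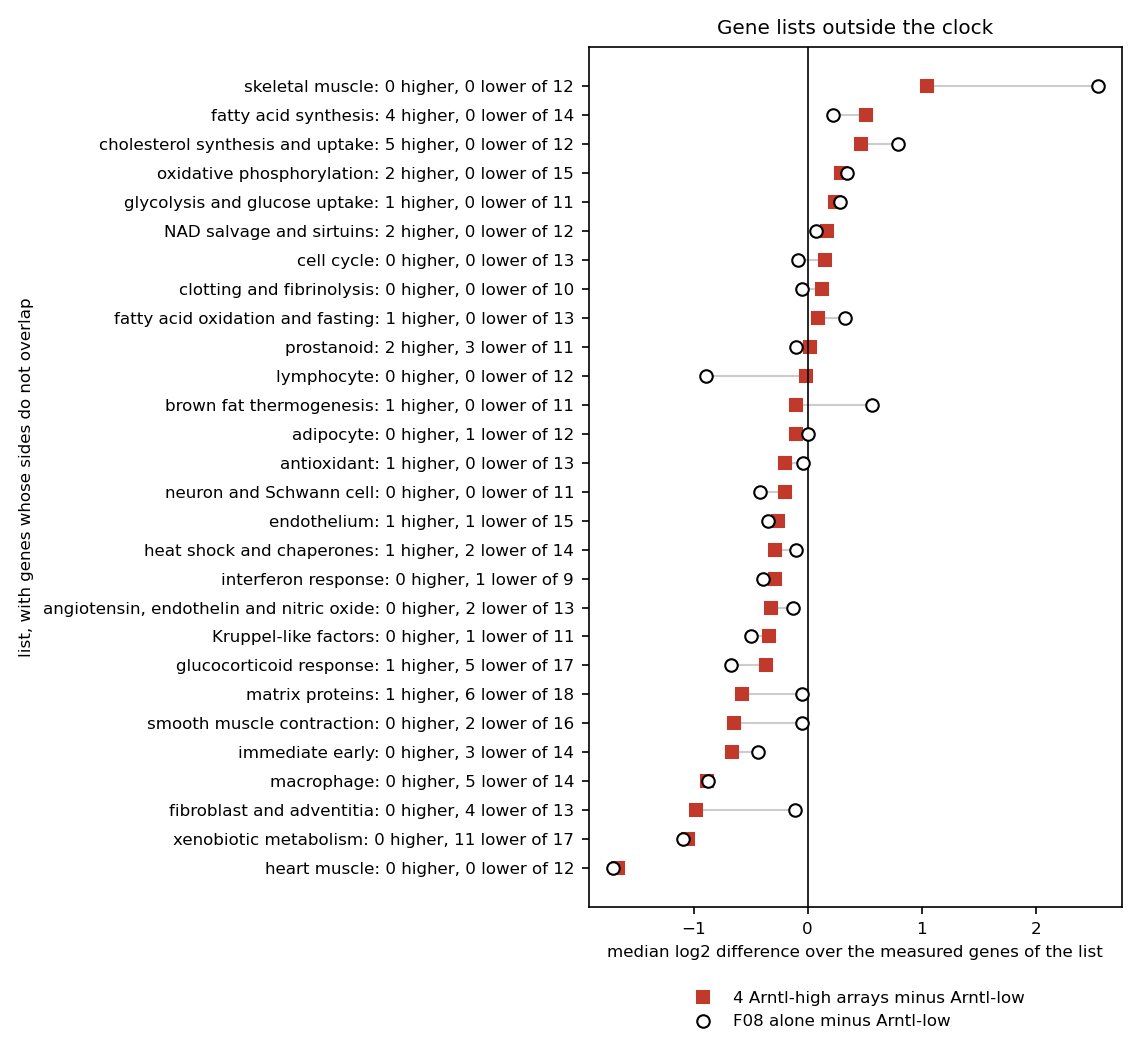
Median log2 difference over the measured genes of each of 28 lists outside the clock, for the 4 Arntl-high arrays against the Arntl-low arrays (red squares) and for F08 alone against them (open circles). The label gives the number of genes whose sides do not overlap, higher or lower in Arntl-high, of those measured. Over all genes the shares are 3.94% higher and 2.04% lower, and over bright probe sets 4.74% and 4.48%. Red and open marks lie close together for xenobiotic metabolism (-1.05 and -1.10) and macrophage genes (-0.89 and -0.88) and apart for fibroblast (-0.98 and -0.11) and smooth muscle genes (-0.64 and -0.05). The medians of the prostanoid and lymphocyte lists are near 0 and change sign with the scaling.

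Lists of cell types showed which differences F08 shared. For macrophage genes 5 of 14 did not overlap with Arntl-high below, against 2.04% of all genes and 4.48% of bright probe sets. The median of the list was -0.89, and -0.88 on F08 alone. The mean level of the list was 5.36 to 6.08 on the Arntl-high and 6.22 to 7.44 on the Arntl-low arrays. Cd163, a scavenger receptor of resident macrophages, read 6.31 to 7.11 against 7.53 to 8.51, and C1qc, a chain of complement C1q, read 4.19 to 4.81 against 5.55 to 7.94, with F08 at -1.81 and -2.02 from the Arntl-low mean. Csf1r, the receptor for macrophage growth factor, overlapped at 9.33 to 10.40 against 9.53 to 10.86. The others without overlap were Cd14, Folr2 and Mrc1, with differences of -2.01, -1.47 and -0.88, the last of them named after its value was seen. F08 alone differed by -0.94 for Cd14 and -1.44 for Folr2. C1qc, Cd14 and Folr2 were below the limit of brightness, and Folr2 lay near the floor on the Arntl-high arrays (2.81 to 2.86). C1qa and C1qb, the other chains of C1q, overlapped, with differences of -2.22 and -0.84. The part of macrophage number in the other differences was not tested. For fibroblast genes 4 of 13 did not overlap with Arntl-high below, against the same 2.04% and 4.48%. Among them the small proteoglycan gene Dcn read 11.18, 11.12, 11.91 and 11.51 against 12.39 to 12.61, and Pi16, a peptidase inhibitor of adventitial fibroblasts, read 5.04, 5.05, 4.83 and 7.52 against 8.25 to 9.67 on F01, F05, F07 and F09 and 8.0 on F10. The brightest genes of the list that overlapped, the collagen genes Col3a1 and Col1a2, differed by -0.02 and -0.09 (F08 0.78 and 0.64). Of the 13 genes 11 differed below 0 and 2 above. The list's median was -0.98, but -0.11 on F08 alone. Smooth muscle genes followed the same pattern: 2 of 16 did not overlap (Myh11 at 11.67, 11.55, 12.16 and 12.78 against 13.01 to 13.30, and Smtn at 7.17, 7.37, 8.34 and 8.52 against 8.65 to 9.30), with medians of -0.64 and, on F08, -0.05. Of the 16 smooth muscle genes 15 differed below 0, but the bright Acta2 and Tpm2 overlapped, at -0.12 and -0.05. Over all probe sets of the gene the difference was -0.47 for Myh11 in place of -1.09, -0.64 for Dcn in place of -1.05 and -1.49 for Pi16 in place of -2.93. For both lists the 3 arrays with the lowest mean level were those with the wide 3′ to 5′ difference, and its part was not tested.

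Of 15 endothelial genes, Pecam1, an adhesion molecule of endothelial junctions, did not overlap with Arntl-high below (5.14 to 6.76 against 7.12 to 8.06), and Kdr, the main receptor of vascular endothelial growth factor, with Arntl-high above (4.93 to 6.08 against 4.02 to 4.66), with F08 at -1.37 and 0.51 from the Arntl-low mean. Kdr was below the limit of brightness. The clotting factor gene Vwf overlapped, at 9.56 to 10.94 against 9.30 to 10.60. The counts of this and the next lists stand against shares over all genes of 2.04% below and 3.94% above. Over bright probe sets these shares were 4.48% and 4.74%. Of 11 prostanoid genes 2 were above and 3 below without overlap. Ptger3, a receptor of prostaglandin E2, read 11.17, 11.24, 11.26 and 11.83 against 10.27 to 10.61. Ptgis, the prostacyclin synthase, read 10.27 to 10.88 against 11.09 to 11.83, and the inducible cyclooxygenase gene Ptgs2 read 2.91 to 3.15 against 3.91 to 6.16. Ptgds, a synthase of prostaglandin D2, read 4.57 to 7.25 against 3.46 to 3.95, and Hpgd, which inactivates prostaglandins, at most 4.76 against 5.18 to 7.33. F08 alone differed from the Arntl-low mean by 1.36 for Ptger3, -0.60 for Ptgis, -2.14 for Ptgs2, 0.86 for Ptgds and -1.65 for Hpgd, against 2.03 for Ptgds over the 4 Arntl-high arrays. Over all probe sets of the gene the difference was 0.36 for Ptger3 in place of 0.90, -1.06 for Ptgs2 in place of -2.14, 1.19 for Ptgds in place of 2.03 and -0.74 for Hpgd in place of -1.53. Ptgs2, Ptgds and Hpgd were below the limit of brightness, and Ptgs2 lay near the floor on the Arntl-high arrays. Of 14 measured heat shock and chaperone genes 2 were below and 1 above without overlap. The stress chaperone genes Hspa1a and Hspa1b were lower without overlap, at 6.81 to 8.09 against 8.50 to 10.90 and at 8.45 to 10.12 against 10.91 or more, with F08 at -1.42 and -1.61 from the Arntl-low mean. The mitochondrial chaperone gene Hspe1 was above without overlap at its brightest probe set, by 0.32 (F08 0.45), and the mean of its 2 probe sets differed by -0.39. The bright chaperone genes Hspa8 and Hspa5 overlapped, with differences of 0.004 and 0.20. Of the 14 genes 11 differed below 0 and 3 above. On the list of immediate early genes 3 of 14 did not overlap with Arntl-high below, namely Ier3 (6.01 to 6.55 against 7.16 to 7.66), Btg2 (4.36 to 5.01 against 5.11 to 6.51) and Atf3 (4.15 to 5.06 against 5.11 to 7.33), with F08 at -1.30, -0.58 and -0.93. Btg2 and Atf3 were below the limit of brightness. The medians of the endothelial, prostanoid, heat shock and immediate early lists were -0.26, 0.02, -0.28 and -0.66, and on F08 alone -0.35, -0.10, -0.11 and -0.43, with the prostanoid median at -0.03 after centring.

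Other lists held few or no genes without overlap. The shares were 2.04% below and 3.94% above over all genes, and 4.48% and 4.74% over bright probe sets. So small a count is given for the genes alone and not as a result about a list. Thermogenic and fat cell genes had 1 each, Ppargc1a, the coactivator of mitochondrial genes (7.22 to 7.64 against 6.20 to 7.08), and Lpl, the lipoprotein lipase (13.58 to 14.07 against 14.12 to 14.44). F08 alone differed from the Arntl-low mean by 0.61 for Ppargc1a and -0.18 for Lpl, and over both its probe sets the difference of Lpl was -0.65 in place of -0.41. Of 15 oxidative phosphorylation genes Ndufb8 and Ndufv1 were above without overlap, by 0.54 and 0.59 (F08 0.35 and 0.32), and Ndufv1 overlapped after quantile normalization and differed by 0.33 over all its probe sets. Of 12 NAD genes Sirt5, a mitochondrial deacylase, and Nmnat1, which makes NAD in the nucleus, were above by 0.99 and 0.90 (F08 0.48 and 0.90), and Sirt5 by 0.53 over all its probe sets. Sod2, the mitochondrial superoxide dismutase, was above by 0.68 (F08 0.44), and Tpi1 of glycolysis by 0.46 (F08 0.37), while the mean of all Tpi1 probe sets differed by -0.03. Edn1, the gene of endothelin 1, read 5.84 to 6.18 against 6.19 to 7.11, and Pde1a, a phosphodiesterase of cyclic nucleotides, read 3.60 to 5.30 against 5.55 to 6.15, with F08 at -0.37 and -0.42 from the Arntl-low mean. Edn1 overlapped after quantile normalization and after centring, and Pde1a differed by -0.46 over both its probe sets in place of -0.97. Pde1a was below the limit of brightness. Heart muscle, skeletal muscle, lymphocyte, neuron, cell cycle and clotting lists had 0 genes without overlap. Heart and skeletal muscle nonetheless had wide medians of -1.67 and 1.04. On F08 alone they were -1.71 and 2.54, with F08 below every Arntl-low array at 8 of 12 heart genes and above every one at 8 of 12 skeletal genes. The mean levels overlapped, at 4.98 to 8.38 on the Arntl-high against 6.45 to 8.95 on the Arntl-low arrays for heart, and at 7.56 to 10.72 against 4.30 to 10.99 for skeletal muscle. The part of these muscles in the other differences was not tested.

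Motif letters were then read in the RefSeq windows of 300 bases around the starts of these genes, from 250 before to 50 after (assembly GRCm38.p6). The motifs, on both strands, were the E-box CACGTG that BMAL1 and its partners bind, the D-box (TTATGTAA or TTACGTAA) of Dbp, Tef and Hlf, the ROR element (AANT followed by AGGTCA or GGGTCA) of REV-ERB and ROR receptors, and a glucocorticoid element (GNACA, any 3 bases, then TGTNC). Of the 24 genes 23 had a window. The E-box was found for Fkbp5, Tspan4, Slc16a1 and Dhcr7, the glucocorticoid element for Fam107a, and the ROR element for the sorting gene Arntl. The windows below are shown as those of the widest-gap genes in which a motif was found, with Arntl first, and the capitals mark the motif. They are chr7:113207261-113207560 (plus strand) for Arntl, chr17:28486100-28486399 (minus) for Fkbp5, chr7:141476130-141476429 (plus) for Tspan4, chr3:104638414-104638713 (plus) for Slc16a1 and chr14:8309728-8310027 (minus) for Fam107a, each printed 5′ to 3′ along the gene.
Arntl: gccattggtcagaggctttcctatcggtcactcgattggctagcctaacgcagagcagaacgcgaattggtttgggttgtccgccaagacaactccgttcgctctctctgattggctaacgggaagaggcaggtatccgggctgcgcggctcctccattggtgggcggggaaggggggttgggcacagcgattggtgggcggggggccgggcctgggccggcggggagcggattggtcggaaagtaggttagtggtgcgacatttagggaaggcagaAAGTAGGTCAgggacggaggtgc
Fkbp5: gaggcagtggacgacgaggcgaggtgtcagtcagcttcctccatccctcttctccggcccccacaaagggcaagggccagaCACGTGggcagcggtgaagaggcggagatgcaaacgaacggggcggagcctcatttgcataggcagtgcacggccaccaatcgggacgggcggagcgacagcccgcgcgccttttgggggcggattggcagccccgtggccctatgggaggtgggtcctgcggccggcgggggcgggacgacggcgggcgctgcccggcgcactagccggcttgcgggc
Tspan4: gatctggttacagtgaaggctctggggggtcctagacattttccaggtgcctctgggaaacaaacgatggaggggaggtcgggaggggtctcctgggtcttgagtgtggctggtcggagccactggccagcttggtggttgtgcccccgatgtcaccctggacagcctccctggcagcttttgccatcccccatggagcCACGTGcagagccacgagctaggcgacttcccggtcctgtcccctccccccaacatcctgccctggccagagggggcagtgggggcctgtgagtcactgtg
Slc16a1: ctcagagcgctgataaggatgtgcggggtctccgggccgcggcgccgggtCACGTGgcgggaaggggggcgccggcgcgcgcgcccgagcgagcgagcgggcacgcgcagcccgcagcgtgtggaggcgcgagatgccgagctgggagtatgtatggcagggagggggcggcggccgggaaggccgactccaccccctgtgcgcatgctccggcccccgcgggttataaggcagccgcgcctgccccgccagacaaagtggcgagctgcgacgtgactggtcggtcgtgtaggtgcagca
Fam107a: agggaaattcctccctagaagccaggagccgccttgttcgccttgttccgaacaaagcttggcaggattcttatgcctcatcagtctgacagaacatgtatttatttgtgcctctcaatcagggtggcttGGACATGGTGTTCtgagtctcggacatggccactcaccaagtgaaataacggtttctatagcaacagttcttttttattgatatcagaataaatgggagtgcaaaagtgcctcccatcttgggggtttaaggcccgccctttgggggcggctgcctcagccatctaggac

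The share of windows with an E-box was 10 of 92 (10.9%) for the 58 matched genes of the 76 higher ones and 7 of 98 (7.14%) for the 75 matched genes of the 100 lower ones, against 7.15% of all 32851 windows. For the glucocorticoid element it was 3 of 98 (3.06%) in the lower genes, 2 of them overlapping windows of Fam107a, and 0 of 92 in the higher ones, against 0.475% of all windows. No D-box or ROR element was found in either, and they occur in 1.06% and 0.435% of all windows. A match is a description of the letters in this window.

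To see whether an array that took no part in choosing the genes lay with its Arntl side, each array was held out in turn and probe sets outside the clock were chosen on the other 8 by the same rule. Array F04, labelled BMAL+/+, lay nearer the Arntl-high mean at 253 of 291 probe sets (86.9%), against 68.5% of all bright probe sets. F05, labelled BMAL-/-, lay nearer the Arntl-low mean at 273 of 303 (90.1%), against 54.1%. The other arrays, F08 apart, were on their own side at 76.9% (F09) to 96.6% (F07). F08 was on its own side at 182 of 1066 (17.1%), against 34.3% of all bright probe sets. With F08 held out, the Arntl-high arrays that chose the probe sets were the 3 with the wide 3′ to 5′ difference, and F08, which has a narrow one, lay with the Arntl-low arrays at most of what they chose. Whether the 3′ to 5′ difference had a part in this was not tested.

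The arrays that cross the labels were also placed together, on probe sets chosen from the other 7 alone (F02, F03 and F08 against F01, F07, F09 and F10). There were 329 such probe sets, 103 higher and 226 lower. F04 lay nearer the Arntl-high mean at 288 (87.5%), with a median position of 0.946 on a scale where 0 is the Arntl-low and 1 the Arntl-high mean. F05 lay nearer the Arntl-low mean at 303 (92.1%), with a median position of 0.071. The share over all bright probe sets was not counted for this placing. In the held-out placing above it was 68.5% for F04 and 54.1% for F05.

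**Figure D5:**
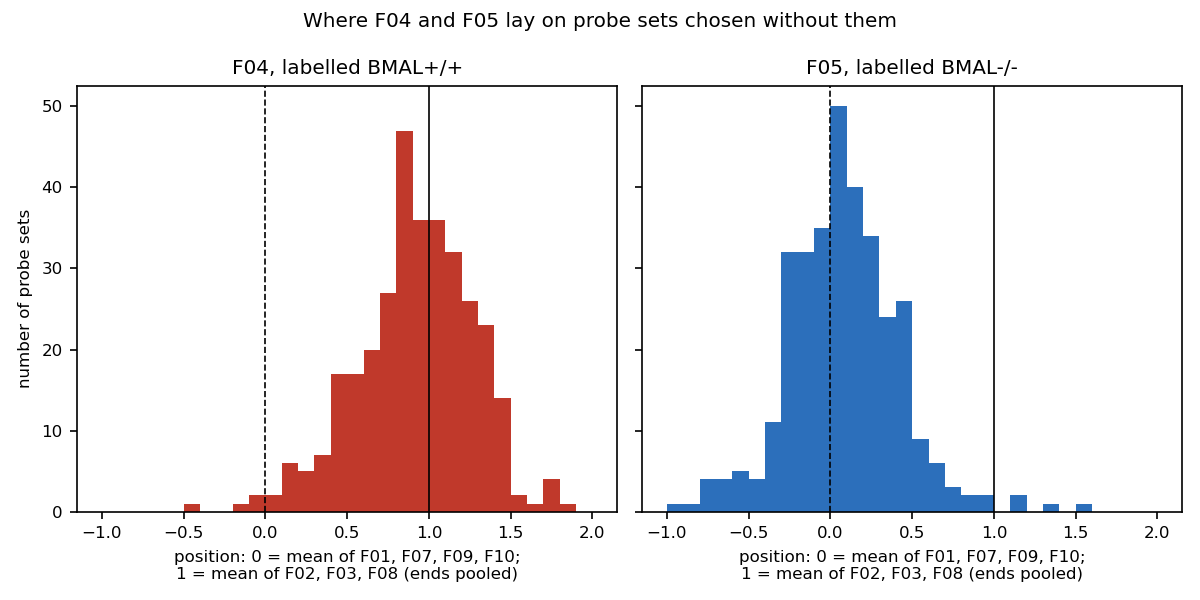
Number of probe sets by the position of F04 (left) and F05 (right), on 329 bright probe sets outside the clock that were chosen without them. Position 0 (dashed line) is the mean of F01, F07, F09 and F10, position 1 (solid line) is the mean of F02, F03 and F08, and values beyond the axis are pooled in the end bars. F04 centres near 1, with a median of 0.946, and F05 near 0, with a median of 0.071.

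F04 shares the wide 3′ to 5′ difference with F02 and F03, so the placing was repeated on probe sets chosen from F08 alone against F01, F07, F09 and F10, 5 arrays that all have a narrower one. On the lys spike-in, though, F01 was close to F03, at 3.12 against 3.17. Of 201 bright probe sets lower on F08, 135 (67.2%) read nearer to F08 than to the mean of those 4 on F04, 117 (58.2%) on F02 and 154 (76.6%) on F03, but 32 (15.9%) on F05. Of 158 higher on F08 the shares were 45.6% on F04, 39.9% on F02, 44.3% on F03 and 13.9% on F05. Over all bright probe sets outside the clock they were 55.7%, 52.5%, 57.4% and 40.9%. F04 thus lay between F02 and F03, or just above both, in each set, and F05 was below all 3. On the higher probe sets the shares of F02, F03 and F04 were under those over all bright probe sets. Any part of the 3′ to 5′ difference in these shares was not tested.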

How the data were processed

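RNA of 9 mouse aortas was measured on 9 arrays, and the values were used as deposited. The deposited table holds log2 expression per probe set, and GCRMA and MAS5 are named in the submitters' processing notes with no role. Background, normalization and summary settings are not given in the sources used here. The 64 control probe sets were left out of the comparisons, which left 45037 of 45101. The platform annotation gives 34945 of them 1 gene, 932 several and 9160 none, and symbols were updated to RefSeq names of GRCm38.p6. Values have a floor near 2 to 3, where spreads are compressed. The number of arrays limits the precision.

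Arrays were split at 4.5 on Arntl and compared as a description with Python 3.11.15, pandas 2.3.3 and numpy 2.4.6. Bright means a mean at or above the upper quartile. Genotype was tested with limma 3.58.1 in R 4.3.3 (lmFit, eBayes with trend, two-sided, Benjamini-Hochberg, threshold 0.05). The design text calls the samples biological replicates. Named were the 12 called genes per direction with the widest gap, the markers, and of each list up to 4 members with the widest gap among those without overlap plus up to 2 of the brightest. A gene stands at its brightest probe set. Members and lists were chosen with earlier results of these data known. Scripts were tested on simulated data. Alternatives changed scaling, brightness, fold, probe sets, the marker and the arrays. The removal of F02 and F03, with or without F04, and the choice of probe sets from F08 were added after the data were seen. Plots used matplotlib 3.10.9.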

Additional observations from a re-analysis of the deposited data

Results flagged for a closer look

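In each group as labelled, an array was listed when it lay farther from the others than Dixon's 95% critical value allows, which chance does in about 1 of 20 groups. For the 3 markers and the 24 widest-gap genes, 54 groups were examined and 21 were listed, 13 through F04 and 8 through F05. The genes were chosen for separating the arrays by Arntl, so the listing is not independent of that choice.

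Within BMAL+/+, F04 stood apart from the other 4 arrays at log2 levels of 6.67 for Arntl, 8.36 for Npas2, 8.82 for Slc19a1 and 8.55 for Rnf144a, all above the rest. It stood below the rest at 5.81 for Nr1d2, 7.44 for Inmt, 6.25 for Tspan4, 5.91 for Fkbp5, 10.03 for Fmo2, 4.82 for Serpini1, 8.03 for Ephx1, 9.23 for Timp3 and 8.50 for Gdf10. Within BMAL-/-, F05 stood below the other 3 arrays at 2.77 for Arntl, 3.40 for Npas2, 7.59 for Litaf, 10.28 for Slc16a1, 6.88 for Rnf144a and 5.89 for Igfbp3, and above them at 11.21 for Nr1d2 and 9.24 for Cys1.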

How the results depend on the processing

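The genotype comparison called 0 probe sets in the main fit and under every alternative run. The counts of 101 higher and 173 lower called probe sets outside the clock became 309 and 341 with a minimum of 1.5-fold, which lowers the bar, and 41 and 37 when the other Arntl probe set made the divide and F02 changed sides. Leaving out 1 array at a time gave 81 to 213 higher and 166 to 853 lower, with the highest of each without F08. The other settings stayed within 1.5 times, at 72 to 147 higher and 147 to 248 lower. Settings with fewer arrays met an easier bar, because fewer arrays had to stay apart. A like count there does not show a like set of probe sets. The share of probe sets at which F04 lay on its own side was 90.6% after quantile normalization and 78.5% when no overlap alone chose them. With no overlap alone, that share was 79.3% for F05 and 23.8% for F08, the lowest of the other 7 arrays. For 74 named genes, 857 alternative values moved by less than 1 SD, 29 moved further and 2 reversed: the mean over all probe sets gave -0.39 for Hspe1 and -0.032 for Tpi1. The cause was not tested. A gene with 1 probe set could not move under the mean over all probe sets. The median of the prostanoid list was 0.02, and -0.03 after centring, and that of the lymphocyte list was -0.01, and 0.01 after quantile normalization. No paired analysis was possible because the labelled groups share no replicate numbers. Dim probe sets near the floor limit what can be said of genes with low levels, and 1 time point limits what can be said of the clock.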
